A study of Mus with 8 samples.

Results

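Transcripts of 10 genes of the transforming growth factor beta (TGF-beta) system were followed in 8 subcutaneous mouse tumours: the ligand genes Tgfb1, Tgfb2 and Tgfb3, the receptor genes Tgfbr1, Tgfbr2 and Tgfbr3, the genes Ltbp1 and Ltbp2 of latent TGF-beta binding proteins, and the response genes Tgfbi and Ccn2. The genes were chosen by name, and a probe was taken as theirs where its accession was a RefSeq transcript of the gene. This gave 13 of the 56605 probes on the array, with 2 probes each for Tgfb1, Tgfb2 and Tgfbr1 and 1 for the other 7 genes. All 10 genes were among the 31281 genes and transcripts that could be tested. The tumours had grown from MC38 cells, a colon cancer line of C57BL/6 mice, placed under the skin of 4 wild-type B6 hosts (WT host) and of 4 hosts that carried Ext1 flox/flox and S100a4-Cre (Ext1S100a4Cre host). Total RNA of whole tumours, taken 25 to 30 days later, was measured on a 1-colour Agilent array, so tumour cells and host cells were read together. Ext1 encodes a polymerase of heparan sulfate chains. S100a4-Cre acts in fibroblasts but also in some immune cells, the MC38 cells keep their own Ext1, and the labels give the WT host neither a Cre nor a floxed allele, so effects of Cre and of Ext1 loss cannot be told apart. The labels of the source material name that host S100a4Cre only, and host age and sex are not given in the sources used here.

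TGF-beta is made as a precursor and is secreted in a latent form, folded inside its own propeptide and tethered to the matrix by latent TGF-beta binding proteins. Integrins, thrombospondin and proteases release it. The freed ligand binds the type II receptor, which activates the type I receptor and through it the SMAD transcription factors, while betaglycan, the type III receptor, is a proteoglycan with heparan sulfate and chondroitin sulfate chains that presents the ligand. In tumours the pathway is known for driving fibroblasts to make matrix and for restraining lymphocytes.

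Levels are given as log2 intensity minus the 75th percentile of the same array, so a level says how a probe stood on its array and is not set against that of another probe. A difference is the mean log2 level in the Ext1S100a4Cre host less that in the WT host, given with limma's standard error (SE) and its p adjusted over all 31281 genes. The 75th percentile ran from 846.9 to 1265 intensity units across the 8 arrays, and 65.7% to 71.1% of probes were well above background. Both ranges had their low ends in tumours 1 and 4 of the Ext1S100a4Cre host. Of the Y-linked genes Ddx3y, Eif2s3y, Kdm5d and Uty, all 4 passed the background limit in each tumour of the WT host and in Ext1S100a4Cre host tumours 2 and 3, but 0 of the 4 did so in tumours 1 and 4. Ext1 itself differed by -0.28 (SE 0.18, limma adjusted p = 0.75) and S100a4 by 0.11 (SE 0.63, adjusted p = 0.97). Transcripts of the epithelial genes Epcam, Krt8, Krt18 and Cdh1, as a colon cancer line should hold, were well above background on all 8 arrays. Cdh17 was so on too few arrays to be tested. Cdx2 and Cdx1 were dim, with mean levels of -2.75 and -5.70 in the WT host, where Cdx1 was well above background in 3 of the 4 tumours.

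No gene of the set differed between hosts beyond the spread between tumours. The mean was lower in the Ext1S100a4Cre host for 9 of the 10 genes, against 41.9% of all genes tested, and was almost equal for Tgfb2. Differences ran from -1.09 for Tgfbi to 0.0012 for Tgfb2, with a median of -0.69, against a median of 0.050 over all genes. Limma's adjusted p lay between 0.75 and 1.00. The count past the adjusted threshold was 0 of 10 members, against 0% of all genes, and at an unadjusted p under 0.05 it was again 0 of 10, against 6.55% of all genes. The hosts overlapped for every member, while they did not overlap for 4.52% of all genes. All 10 were well above background on all 8 arrays with the probe used.

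**Figure D1:**
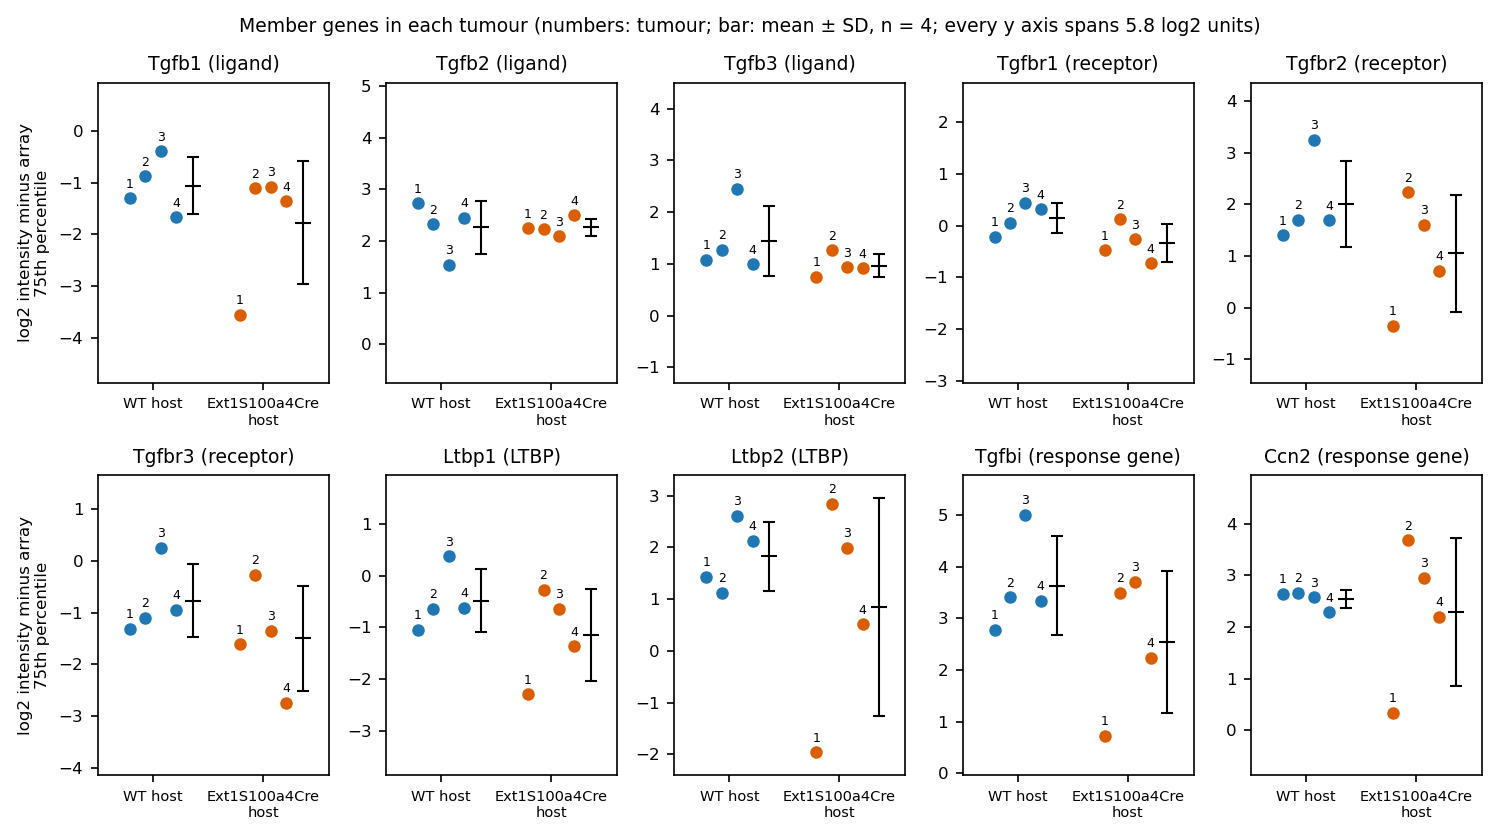
Level of each gene in each tumour, as log2 intensity minus the 75th percentile of its array (y axis, the same span in every panel), by host (x axis). Points are tumours, numbered as in the labels, and bars are the mean ± SD of 4. Ext1S100a4Cre host tumour 1 is the lowest point for 7 of the 10 genes and WT host tumour 3 the highest for 7.

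Tgfb1, the ligand made by many cell types, including macrophages, platelets and tumour cells, measured -1.30, -0.88, -0.39 and -1.67 in WT host tumours 1 to 4 and -3.55, -1.11, -1.08 and -1.36 in the Ext1S100a4Cre host. Tumour 1 of the Ext1S100a4Cre host stood apart from the other 7, and tumours 2 to 4 of that host lay inside the range of the WT host. The difference was -0.72 (SE 0.57, limma adjusted p = 0.77, exact two-sided permutation p = 0.37), and -0.12 without that tumour. A second, dimmer Tgfb1 probe gave -0.89 and had its lowest value, -6.54, in the same tumour, where it was not well above background.

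Tgfb3, a ligand made largely by mesenchymal cells, measured 1.08, 1.28, 2.45 and 0.99 in the WT host and 0.75, 1.26, 0.94 and 0.92 in the Ext1S100a4Cre host. Here the high value of WT host tumour 3 stood apart, and 3 of the 4 tumours of the Ext1S100a4Cre host lay below all WT host tumours. The difference was -0.48 (SE 0.32, limma adjusted p = 0.75, exact permutation p = 0.14), or -0.15 without WT host tumour 3.

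Tgfb2, the ligand whose binding depends most on betaglycan, was the member with the nearest means. It measured 2.73, 2.32, 1.54 and 2.45 in the WT host and 2.24, 2.22, 2.09 and 2.49 in the Ext1S100a4Cre host. WT host tumour 3, the highest tumour for Tgfb1 and Tgfb3, was the lowest for Tgfb2, and Ext1S100a4Cre host tumour 1 lay in the middle. The difference of 0.0012 had a 95% interval from -0.58 to 0.58, which as a ratio of the hosts is 0.670 to 1.50. Its sign turned to -0.058 with quantile normalization and -0.25 in the unscaled series matrix, and the second Tgfb2 probe gave -0.16. That probe also had its lowest value (0.61) in WT host tumour 3 and its highest (1.87) in WT host tumour 1.

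**Figure D2:**
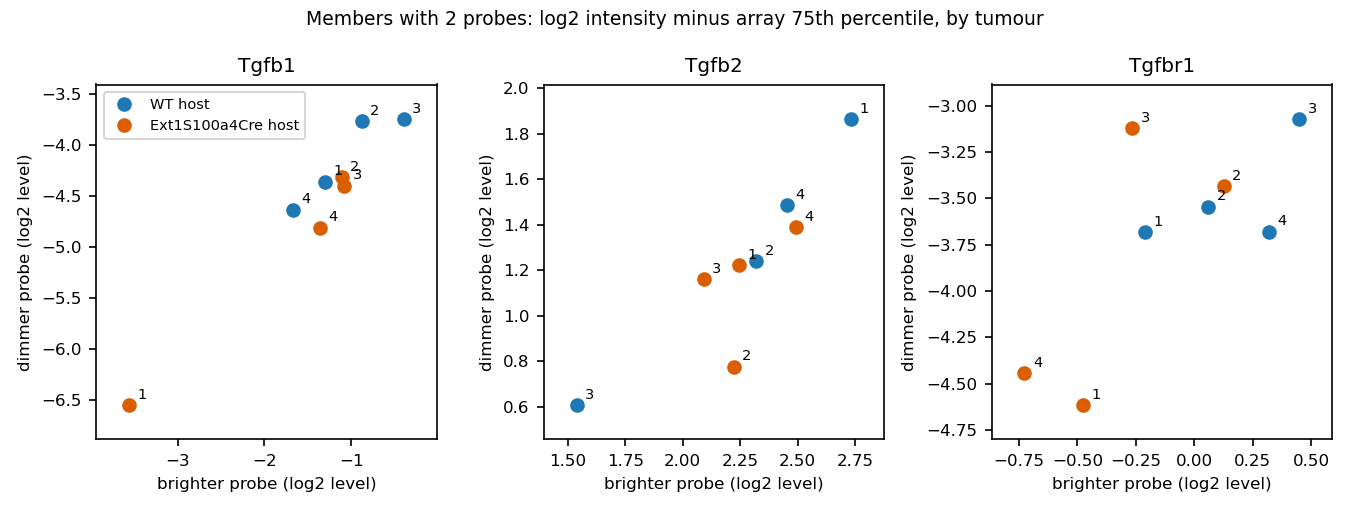
The 3 genes with 2 probes, each tumour's level on the brighter probe (x axis) against the dimmer one (y axis), both as log2 intensity minus the array's 75th percentile, with colours for the host and numbers for the tumour. Both Tgfb1 probes set Ext1S100a4Cre host tumour 1 apart, and both Tgfb2 probes are lowest in WT host tumour 3.

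Among the receptors, Tgfbr1 had the smallest unadjusted p of the 10 genes. This type I receptor, the kinase that phosphorylates the SMADs, measured -0.21, 0.06, 0.45 and 0.32 in the WT host and -0.48, 0.13, -0.27 and -0.73 in the Ext1S100a4Cre host. Only tumour 2 of the Ext1S100a4Cre host reached the range of the WT host. The difference was -0.49 (SE 0.22), with a 95% interval from -1.00 to 0.023, a limma adjusted p of 0.75 and an exact permutation p of 0.11. Of the 31281 genes, 2398 had a smaller unadjusted p. The second Tgfbr1 probe gave -0.41 (SE 0.35), and on it tumours 2 and 3 of the Ext1S100a4Cre host both lay in the range of the WT host.

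Tgfbr2, the type II receptor that first binds the ligand, measured 1.40, 1.71, 3.25 and 1.69 in the WT host and -0.35, 2.24, 1.61 and 0.71 in the Ext1S100a4Cre host. WT host tumour 3 was far above the other 3 of its group, and Ext1S100a4Cre host tumours 1 and 4 were the lowest of the 8. The difference of -0.96 (SE 0.61, limma adjusted p = 0.75, exact permutation p = 0.23) was -0.49 without Ext1S100a4Cre host tumour 1 and -0.55 without WT host tumour 3.

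Tgfbr3 encodes betaglycan, the member of the set that itself carries heparan sulfate. It measured -1.31, -1.10, 0.26 and -0.94 in the WT host and -1.62, -0.27, -1.35 and -2.75 in the Ext1S100a4Cre host. Its lowest tumour was Ext1S100a4Cre host tumour 4, not tumour 1, while tumour 2 was above 3 of the 4 WT host tumours. The difference was -0.72 (SE 0.54, limma adjusted p = 0.76, exact permutation p = 0.31), or -0.31 without tumour 4, -1.13 without tumour 2 and -0.38 without WT host tumour 3.

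Of the latent binding proteins, Ltbp1 tethers latent TGF-beta to the matrix, whereas Ltbp2 binds fibrillin microfibrils and is not known to bind the latent ligand. Ltbp1 measured -1.05, -0.64, 0.37 and -0.62 in the WT host and -2.29, -0.27, -0.64 and -1.36 in the Ext1S100a4Cre host. Ltbp2 measured 1.43, 1.13, 2.61 and 2.13 in the WT host and -1.96, 2.84, 1.99 and 0.51 in the Ext1S100a4Cre host. Ltbp2 had the widest spread of the 10 genes, 4.80 log2 units between Ext1S100a4Cre host tumours 1 and 2. The difference was -0.66 for Ltbp1 (SE 0.47, limma adjusted p = 0.75, exact permutation p = 0.31). For Ltbp2 it was -0.98 (SE 0.95, limma adjusted p = 0.79, exact permutation p = 0.49). Without Ext1S100a4Cre host tumour 1 they were -0.27 and -0.044. Ltbp1 differed by -0.37 without WT host tumour 3, and Ltbp2 by -1.64 without Ext1S100a4Cre host tumour 2.

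The response genes parted in which tumours were high. Tgfbi, which encodes a secreted matrix protein named for its induction by TGF-beta, measured 2.78, 3.41, 5.01 and 3.34 in the WT host and 0.73, 3.50, 3.71 and 2.24 in the Ext1S100a4Cre host. WT host tumour 3 was the highest and Ext1S100a4Cre host tumour 1 the lowest, and tumours 2 and 3 of the latter host were above 3 WT host tumours. The difference of -1.09 (SE 0.73, limma adjusted p = 0.75, exact permutation p = 0.29) corresponds to 0.470 of the WT host level, with a 95% interval of the ratio from 0.147 to 1.50. It was -0.49 without Ext1S100a4Cre host tumour 1 and -0.63 without WT host tumour 3.

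Ccn2, also known as connective tissue growth factor, is raised by TGF-beta and by the YAP and TEAD factors. It measured 2.64, 2.66, 2.58 and 2.28 in the WT host and 0.34, 3.68, 2.95 and 2.20 in the Ext1S100a4Cre host. The 4 WT host tumours lay close together (SD 0.17), while the Ext1S100a4Cre host held both the lowest and the highest tumours (SD 1.43). Unlike Tgfbi, Ccn2 was not high in WT host tumour 3. The difference was -0.25 (SE 0.63, limma adjusted p = 0.92, exact permutation p = 0.80), and it turned to 0.40 without Ext1S100a4Cre host tumour 1.

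**Figure D3:**
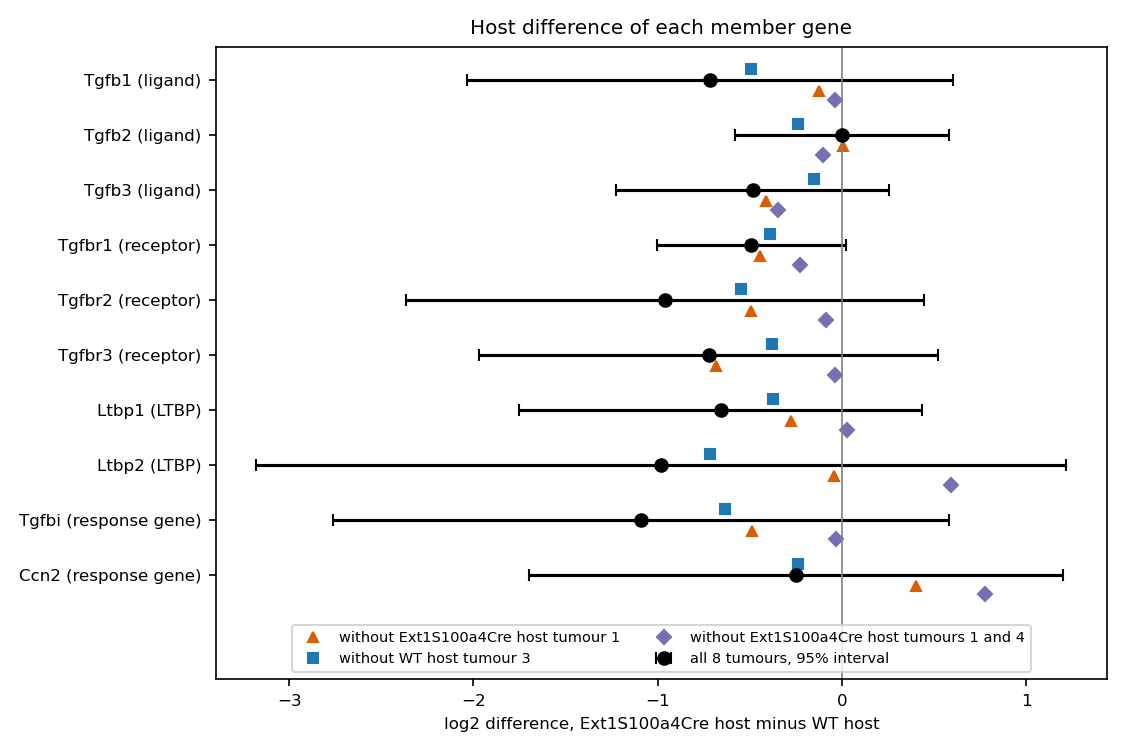
Log2 difference between hosts (x axis, Ext1S100a4Cre less WT) for each gene, with limma's 95% interval in black. Coloured markers give the difference without single tumours or without Ext1S100a4Cre host tumours 1 and 4. All 10 intervals include 0, and without tumours 1 and 4 the differences lie between -0.35 and 0.78.

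Much of the spread in the set lay in few tumours. Averaged over the 10 genes after each was centred on its mean over the 8 tumours, WT host tumour 3 stood at 0.97 and Ext1S100a4Cre host tumour 1 at -1.46. The next were Ext1S100a4Cre host tumours 2 (0.58) and 4 (-0.55), and the remaining 4 tumours lay between -0.02 and 0.16. In Ext1S100a4Cre host tumour 1 the latent binding protein genes stood lowest (-2.39) and the response genes next (-2.22), against -0.87 for the ligands and -0.92 for the receptors. In tumour 4 of that host the receptors stood lowest (-1.02) and the ligands at -0.0012. Tgfb2 followed neither pattern.

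Markers of other cell types moved in the same tumours. All 12 fibroblast markers measured were lower on average in the Ext1S100a4Cre host, against 41.9% of all genes tested. Pdgfra was almost equal (-0.016), with 0.81 in Ext1S100a4Cre host tumour 1 against a WT host mean of 0.84. The mean level of the 12 ran from 2.05 to 3.92 in the WT host and from -0.76 to 3.05 in the Ext1S100a4Cre host. Of the 12 macrophage markers 11 were lower, with a mean level of 0.51 to 2.68 in the WT host and -2.29 to 1.15 in the Ext1S100a4Cre host. Centred on the 8 tumours, both lists were highest in WT host tumour 3 (1.76 and 2.23) and lowest in Ext1S100a4Cre host tumour 1 (-2.93 and -2.74). The endothelial list, 9 of 10 lower, stood at -1.43 in Ext1S100a4Cre host tumour 1, and the T cell list, also 9 of 10 lower, at -1.32. The epithelial list, 2 of 9 lower, was lowest in WT host tumour 3 (-0.40), the tumour in which Tgfb2 was lowest. The list and Tgfb2 did not run together in every tumour. In Ext1S100a4Cre host tumour 4 the list stood at -0.38 with Tgfb2 at a level of 2.49, and in WT host tumour 4 at 0.45 with 2.45. Skeletal muscle markers, 11 of 11 higher, were high in Ext1S100a4Cre host tumours 2 (2.61) and 3 (3.60), the tumours with the highest Ccn2. Platelet markers, 3 of 5 lower, lay between -0.91 and 0.77. Among the listed markers, Myh4 (muscle), Itga2b (platelet), Cdh17 (epithelial), Krt1 (keratinocyte) and Plin1 (adipocyte) were well above background on fewer than 4 arrays. The part of these cell types in the differences was not tested, and in whole tumours fewer cells of a type cannot be told apart from less RNA per cell.

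**Figure D4:**
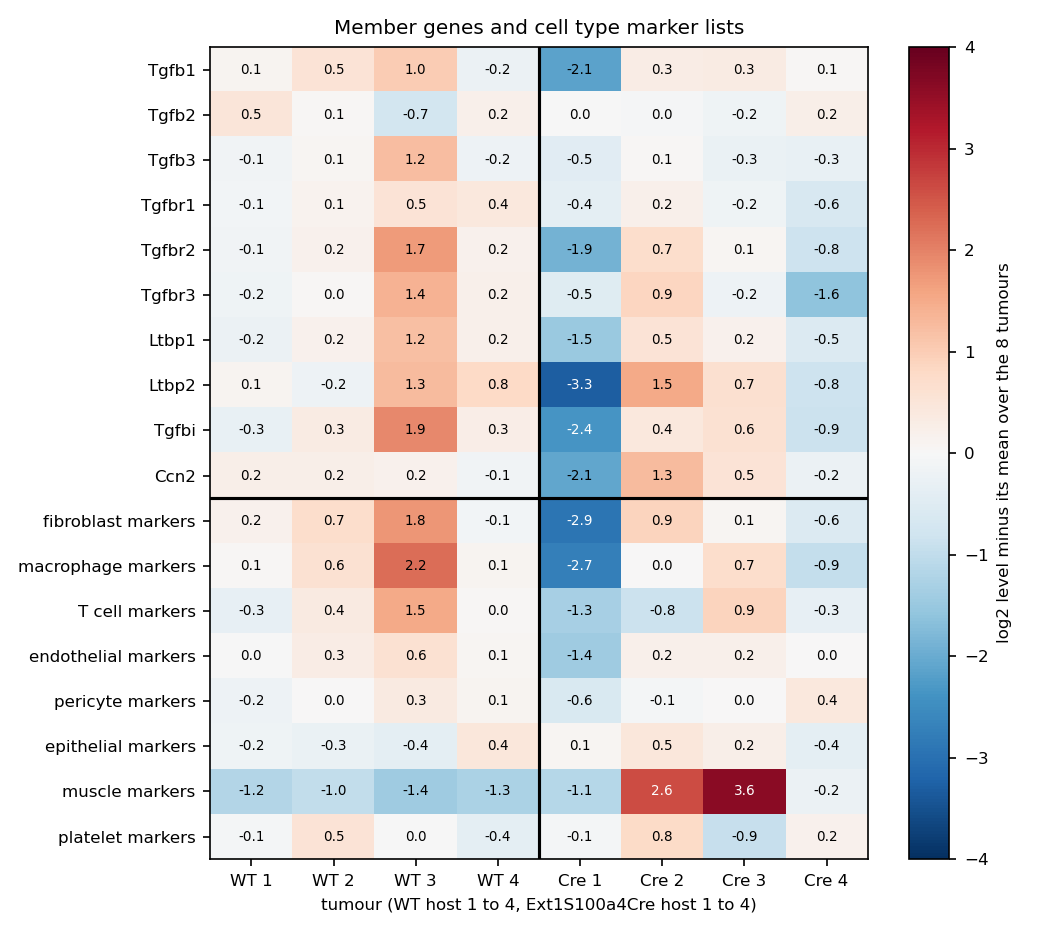
Levels of the 10 genes (upper rows) and mean levels of marker lists (lower rows) in each tumour (columns), as log2 units from the mean over the 8 tumours, in colour and in figures. WT host tumour 3 and Ext1S100a4Cre host tumour 1 stand at opposite ends for most genes and for the fibroblast and macrophage markers, while Tgfb2 and the epithelial markers are lowest in WT host tumour 3. In Ext1S100a4Cre host tumour 4 the epithelial markers are nearly as low, but Tgfb2 is not.

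The differences depended on which tumours were included. Without Ext1S100a4Cre host tumours 1 and 4, 7 of the 10 genes had a lower mean, and Ltbp1 (0.028), Ltbp2 (0.59) and Ccn2 (0.78) were the exceptions. Without Ext1S100a4Cre host tumours 2 and 3, 9 of the 10 were lower, from -2.55 for Ltbp2 to -0.62 for Tgfb3, with Tgfb2 at 0.11. In either case 0 of 10 passed the threshold in limma. An unadjusted limma p under 0.05 was reached by 1 and 7 of the 10. Of all 31281 genes, 1820 and 5361 reached it in the same 2 settings, against 2050 with all 8 tumours. The share over all genes thus fell without tumours 1 and 4 and rose without tumours 2 and 3. The arrays lay in 2 rows of 1 slide, with 2 tumours of each host in either row. Within row 1, 9 of the 10 genes had a lower mean in the Ext1S100a4Cre host, the exception being Tgfbr3 (0.26, against -1.71 in row 2). Within row 2, 8 were lower, the exceptions being Tgfb2 (0.30) and Ccn2 (0.14).

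Other genes of the pathway were read from 5 lists with 88 genes in all, of which 86 could be tested. Their count past limma's adjusted threshold was 0. A lower mean was seen for 64 and a higher one for 22, while 41.9% of all genes tested had a lower mean. An unadjusted limma p under 0.05 was reached by 4 lower and 1 higher, against 2.16% and 4.39% of all genes in these directions. The lists overlap with the cell type lists: Col1a1, Col1a2 and Col3a1 also stand in the fibroblast list, as do Mmp2 and Dcn.

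The list of genes that store or release latent TGF-beta also held Dcn, Bgn, Fmod and Aspn, small leucine-rich proteoglycans of the matrix. Of its 18 genes tested, 14 were lower on average, with a median of -0.51. The median was -0.18 without Ext1S100a4Cre host tumour 1, -0.28 without WT host tumour 3 and 0.20 without Ext1S100a4Cre host tumours 1 and 4. Itgav, the integrin alpha chain whose pairs with beta chains pull the latent complex open, measured 2.03, 1.97, 2.26 and 1.97 in the WT host and 1.19, 1.86, 1.74 and 1.54 in the Ext1S100a4Cre host. The hosts did not overlap for Itgav, as for 1.14% of all genes in this direction, but the difference of -0.47 (SE 0.17) missed limma's adjusted threshold (0.75). Ltbp4, a further latent binding protein, went the other way with 0.50 (SE 0.24), while Aspn, an inhibitor of the ligand in the matrix, differed by -1.65 (SE 0.82) and fibrillin 1 (Fbn1) by -1.07 (SE 0.65), each at a limma adjusted p of 0.75. Without Ext1S100a4Cre host tumour 1, Aspn differed by -0.91 and Fbn1 by -0.51, and Fbn1 by -0.69 without WT host tumour 3. Ltbp4 differed by 0.29 without tumour 2 of the Ext1S100a4Cre host. Thbs1, the activator thrombospondin 1, differed by -0.29, which turned to 0.22 without Ext1S100a4Cre host tumour 1. Lrrc32, which holds latent TGF-beta on the surface of regulatory T cells, differed by -0.19, or 0.48 without that tumour and 0.060 without WT host tumour 3.

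The SMADs, co-receptors and their regulators lay near the background of all genes. Of 21 genes 13 were lower and 8 higher, 0 had an unadjusted p under 0.05, and the median was -0.061. In the unscaled series matrix, where the median of all genes shifted by -0.25, the median was -0.31. Acvrl1, a type I receptor of endothelial cells, differed by -0.93 (SE 0.45) and Dab2, an adaptor of receptor signalling, by -0.98 (SE 0.53). Zfyve9, which anchors SMADs at the receptor, differed by -0.22 (SE 0.11) without overlap, as for 1.14% of all genes in this direction. The repressor Tgif2 differed by 0.42 (SE 0.23). These 4 had a limma adjusted p of 0.75. Leaving out Ext1S100a4Cre host tumour 1 brought Acvrl1 to -0.57 and Dab2 to -0.48, and leaving out WT host tumour 3 brought Tgif2 to 0.25. Smad3, a receptor-activated SMAD, differed by 0.21, a sign that turned to -0.036 in the series matrix and -0.042 without WT host tumour 3.

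Response genes other than Tgfbi and Ccn2 were lower on average in 24 of 26 cases, with a median of -0.87, or -0.26 without Ext1S100a4Cre host tumour 1 and -0.59 without WT host tumour 3. Lrrc15, a surface protein of TGF-beta-driven fibroblasts, measured -0.03, 0.44, 0.27 and -0.44 in the WT host and -8.00, -0.65, -1.08 and -3.84 in the Ext1S100a4Cre host. It was well above background in 3 of the 4 Ext1S100a4Cre host tumours, and its difference of -3.46 (SE 1.47, limma adjusted p = 0.75) was -1.92 without tumour 1. The fibrillar collagens Col1a1 and Col3a1 differed by -1.80 (SE 0.71) and -2.11 (SE 0.88), and Cthrc1, a secreted protein of matrix-making cells, by -2.14 (SE 0.99), each at an adjusted p of 0.75. Acta2, smooth muscle actin, differed by -0.66 (SE 0.46), and its dimmer probes gave -0.35 (SE 0.46) and -0.25 (SE 0.17). With tumour 1 of the Ext1S100a4Cre host left out, the differences were -1.14 for Col1a1, -1.38 for Col3a1, -1.41 for Cthrc1 and -0.29 for Acta2. Without tumours 1 and 4 of that host they were -0.97, -0.94, -0.40 and -0.56, and Lrrc15 differed by -0.93. Over the 21 alternatives described below, the median of these response genes ran from -1.62 to -0.069.

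Among paralogs, 11 of 16 were lower, with a median of -0.41, or -0.0070 without Ext1S100a4Cre host tumour 1 and -0.23 without WT host tumour 3. Ccn4, of the same family as Ccn2, differed by -1.36 (SE 0.61), or -0.69 without Ext1S100a4Cre host tumour 1, and both of its probes agreed (-1.36 and -1.38). The hosts did not overlap for Ccn4, as for 1.14% of all genes in this direction. Postn, periostin, which shares its domains with Tgfbi, differed by -1.64 (SE 0.99), the scavenger receptor Stab1, with the same domain type, by -1.63 (SE 0.74), and the distant ligand Gdf15 by -0.42 (SE 0.25), all at a limma adjusted p of 0.75. Postn moved to -0.69 and Stab1 to -0.98 without Ext1S100a4Cre host tumour 1, and Gdf15 to -0.24 without WT host tumour 3. Without Ext1S100a4Cre host tumours 1 and 4, Postn differed by -0.10. The 10 genes raised by YAP and TEAD were split evenly, 5 lower and 5 higher, with a median of 0.032, which turned to -0.062 without WT host tumour 3 and to -0.067 without WT host tumour 4. Among them the kinase Nuak2 was higher without overlap (0.41, SE 0.14, limma adjusted p = 0.75). Over both directions together, 4.52% of all genes had no overlap. Crim1 differed by -0.58, Axl by -0.87 and Amotl1 by 0.55. Crim1 moved to -0.30 and Axl to -0.19 without Ext1S100a4Cre host tumour 1, and Axl to -0.50 and Amotl1 to 0.21 without WT host tumour 3. Axl turned to 0.099 without Ext1S100a4Cre host tumours 1 and 4. Ccn1, the closest relative of Ccn2 by regulation, differed by -0.19, and by 0.27 without Ext1S100a4Cre host tumour 1.

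**Figure D5:**
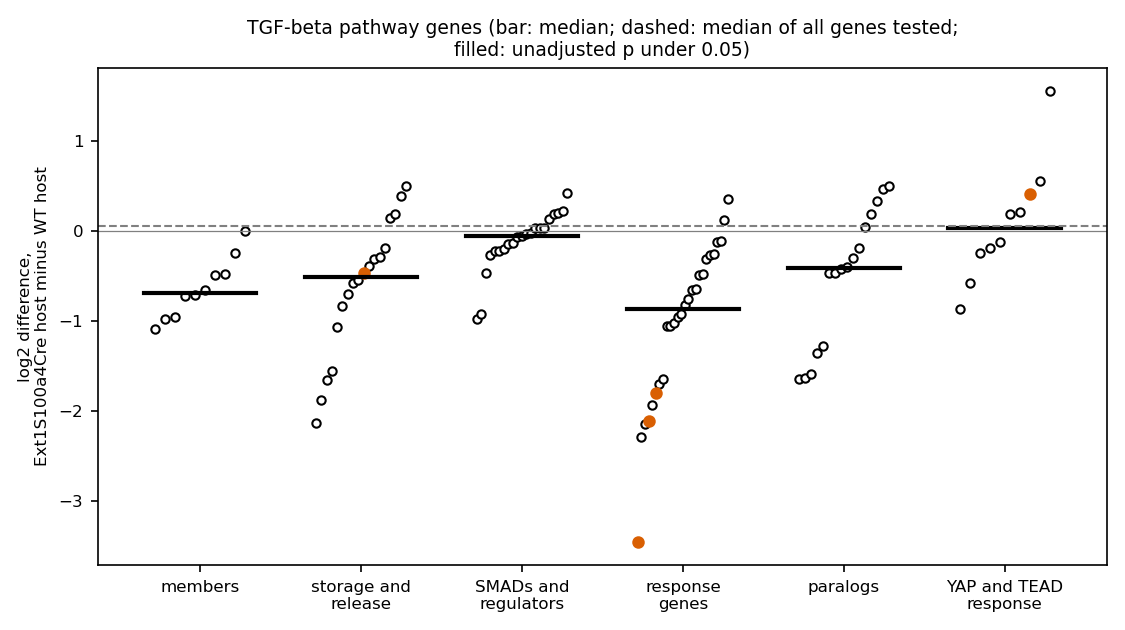
Log2 difference between hosts (y axis, Ext1S100a4Cre less WT) for each gene of the set and of the 5 pathway lists (x axis), sorted within a list, with bars at the medians and a dashed line at the median of all genes tested (0.050). Filled points have an unadjusted p under 0.05, and 0 of the plotted genes pass the adjusted threshold.

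Likeness of pattern was measured for the 8 genes whose levels had an SD of at least 0.5 log2 units over the 8 tumours, as the root mean square (RMS) difference of centred levels, among 15728 named genes. With 8 tumours of shared make-up, close matches are frequent and are given as a description. The closest gene to Tgfb1 was Emilin1 (RMS difference 0.12), a gene of the storage and release list. Emilin1 stood at -6.82 in Ext1S100a4Cre host tumour 1 and was well above background in 3 of the 4 tumours of that host. The closest gene to Tgfb3 was Junb (0.12), that to Tgfbr2 was Hoatz (0.13, with Prnp next at 0.15) and that to Tgfbr3 was Amy2a5 (0.19). The closest to Ltbp1 was Lima1 (0.11), to Ltbp2 Ptprr (0.29), to Tgfbi Pla2g7 (0.16) and to Ccn2 Barx2 (0.19, with Synpo next at 0.20). Within the set the nearest pairs were Tgfbr2 with Ltbp1 (0.26) and Tgfbr2 with Tgfbi (0.30).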

How the data were processed

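The members, gene lists and tests were chosen with earlier results of these data known. The authors deposited 8 Agilent scanner files, written by Feature Extraction 10.7.3.1 per the file headers (9.1 per the submitters' processing notes); each deposited value is the linear intensity of a spot, background-subtracted and detrended within the array, with no scaling between arrays. Other deposited columns hold flags of 0 or 1, and the deposited series matrix holds the same intensity values unscaled, so its scale and direction are known and it is not centred.

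Log2 of the processed intensity minus the array's 75th percentile was taken, without control spots and outlier spots. A probe was kept where 4 or more of the 8 arrays read it well above background. Probes were named through their accession in a RefSeq table of GRCm38.p6 (32994 of 56605 probes), and the brightest kept probe stood for each gene. The test between hosts was that of limma (version 3.58.1, R version 4.3.3; lmFit, eBayes, Benjamini-Hochberg over 31281 genes, threshold 0.05), tested on simulated data, and single genes were also tested by exact permutation (two-sided) over 70 assignments, where the smallest p possible is 0.0286. Genes named are the 10 members, the 4 genes of each list with the smallest unadjusted p, 8 fixed pathway genes and the closest genes by pattern. Other genes whose values are printed are cell type markers. Results of some listed genes are not reported here. The number of arrays limits the precision.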

Additional observations from a re-analysis of the deposited data

Results flagged for a closer look

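In groups of 4 tumours, the gap of the farthest tumour was set against the whole range, for the 10 genes and the 18 lists, and compared with Dixon's 95% critical value for 4 samples. Chance passes it in about 1 of 20 groups, and the lists share tumours and genes. It was passed by 4 of the 56 groups checked. Tgfb1 in Ext1S100a4Cre host tumour 1 (-3.55, next -1.36) had a ratio of 0.887. Tgfbr2 in WT host tumour 3 (3.25, next 1.71) had 0.835. The endothelial list in Ext1S100a4Cre host tumour 1 (mean level -1.85, next -0.40) had 0.882, and the adipocyte list in WT host tumour 3 (0.073, next -2.74) had 0.889.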

How the results depend on the processing

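Over 21 alternatives, of which that leaving out WT host tumour 3 with Ext1S100a4Cre host tumour 1 was chosen after seeing the data, 0 of the 10 genes passed limma's adjusted threshold. Leaving out Ext1S100a4Cre host tumours 1 and 4, or 2 and 3, matches the split by Y-linked signal. That split is seen in these data and is not given in the labels. The tumours without Y-linked signal were all of the Ext1S100a4Cre host, so differences over all 8 tumours do not separate the host from this split. Tgfb3, Tgfbr1, Tgfbr2, Tgfbr3 and Tgfbi kept their direction in all 21. Tgfb2 turned with quantile normalization (-0.058), in the series matrix (-0.25) and with the mean of its probes (-0.081). Without Ext1S100a4Cre host tumours 1 and 4, Tgfb2 (-0.10), Ltbp1 (0.028), Ltbp2 (0.59) and Ccn2 (0.78) turned. The medians of the paralogs (0.32) and of the storage and release list (0.20) also turned, and 11 of all genes passed. Without WT host tumour 3 and Ext1S100a4Cre host tumour 1, Tgfb1 (0.099), Tgfb2 (-0.23), Ltbp1 (0.012), Ltbp2 (0.22) and Ccn2 (0.41) turned, as did the medians of those lists (0.090 and 0.086), and 3 of all genes passed. With normexp, 1 of all genes passed, and in the series matrix the median of the SMAD list was -0.31. The cause of these changes was not tested.

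With 1 tumour left out, the difference ranged from -0.24 to 0.16 for Tgfb2 and from -0.71 to 0.40 for Ccn2. The count of all genes past the threshold ranged from 0 to 2, and was 2 without WT host tumour 3. The replicate block left the differences as they were and 0 genes past the threshold (adjusted p 0.43 to 1.00 for the 10 genes). Deviations of same-numbered tumours correlated at 0.49, -0.16, 0.59 and -0.25, and 4 of 8 tumours correlated best with their own number, so the numbers were not taken to pair the tumours. Same-numbered tumours also lay in the same slide row. The median of all genes moved from 0.050 to -0.20 in the series matrix.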
